A study of Mus musculus with 4 samples.

Results

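The genes described here are 10 members of the Bcl2 family of apoptosis regulators: Bcl2, Bcl2l1, Bcl2l2, Mcl1, Bax, Bak1, Bad, Bid, Bik and Bcl2l11. A probe belonged to a member when the RefSeq accession that the array files give for it belongs to that gene. All 10 genes were found, with 16 of 41160 probes, among 33378 genes or transcripts on the array. RNA was measured once in each of 4 samples. These were induced pluripotent stem (iPS) lines 7 and 13 (n = 2), E14 embryonic stem (ES) cells (n = 1) and bone marrow mononuclear cells (BMMNCs, n = 1). BMMNCs are a fraction of the blood cells and precursors of marrow. The iPS lines were derived from BMMNCs of Oct4-EGFP transgenic mice and labelled C57BL/6, as were the BMMNCs, while the E14 cells were labelled strain 129. ES and iPS cells grew with leukemia inhibitory factor on irradiated mouse embryonic fibroblasts, and the fibroblasts were depleted by plating on gelatin before RNA was taken. No ages are given, and nothing but the line numbers tells whether samples came from different cultures or animals, so the p-values measure only the spread between these lines, which may be technical.

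Proteins of this family decide at the outer membrane of mitochondria whether a stressed cell dies. Survival members such as Bcl2, Bcl2l1 (Bcl-xL), Bcl2l2 (Bcl-w) and Mcl1 hold the effectors Bax and Bak1 in check. Once free, the effectors form pores that let cytochrome c out and start the caspase cascade. BH3-only members, among them Bad, Bid, Bik and Bcl2l11 (Bim), sense stress and bind survival members or activate the effectors. Different blood cell types are known to depend on different survival members.

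Levels are log2 signals relative to each array's 75th percentile, the signal below which 75% of spots lie. That signal was 1120 in line 7, 1123 in line 13, 1048 in ES cells and 602 in BMMNCs, no spot was saturated, and 54.6% to 59.0% of probes were well above background. Marker genes set the cultures apart from marrow. The 6 pluripotency markers had a summed signal of 487.8 and 499.5 times the percentile signal in the iPS lines. Their sum was 509.5 in ES cells and 0.265 in BMMNCs. The 6 granulocyte markers summed to 0.0548 and 0.0689 in the iPS lines and 0.0737 in ES cells, against 1493 in BMMNCs. Fibroblast markers, which feeder cells carry, remained on the cultures' arrays, with 381 and 361 in the iPS lines and 327 in ES cells, against 8.22 in BMMNCs; all 7 were higher in the iPS lines than in BMMNCs, and Col3a1, Postn and Lum were not well above background in BMMNCs. The parts that feeder cells, and the mixture of cell types in marrow, have in the values below were not tested. In such bulk samples, fewer cells of a type and less RNA per cell cannot be told apart.

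The first comparison sets the iPS lines against BMMNCs, the cells they were made from. In the iPS lines Bax and Bcl2l2 rose, and Bcl2, Bcl2l1, Bak1 and Bid fell, while Mcl1, Bad, Bik and Bcl2l11 did not pass the test. Among the 4 survival members 1 rose and 2 fell, of the 2 effectors 1 rose and 1 fell, and of the 4 BH3-only members 1 fell, each gene read by its brightest probe. The 6 calls among 10 members stand against 75.8% of all 21216 genes tested (limma, Benjamini-Hochberg adjusted p of 0.05), of which 38% rose and 37.8% fell. The median log2 difference of the 10 members was -0.82, and that of all genes tested was -0.01. With normexp background correction all 10 members passed, 3 risen and 7 fallen, where 81.9% of all genes did (34.8% risen, 47.1% fallen). A gene was tested if well above background on at least 1 array. Of the members, 8 were so on all arrays, Bad in BMMNCs alone and Bik in line 7 alone. The test has 1 residual degree of freedom, from the 2 iPS lines, and assumes that the lone ES and BMMNC arrays vary as much as the lines.

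**Figure D1:**
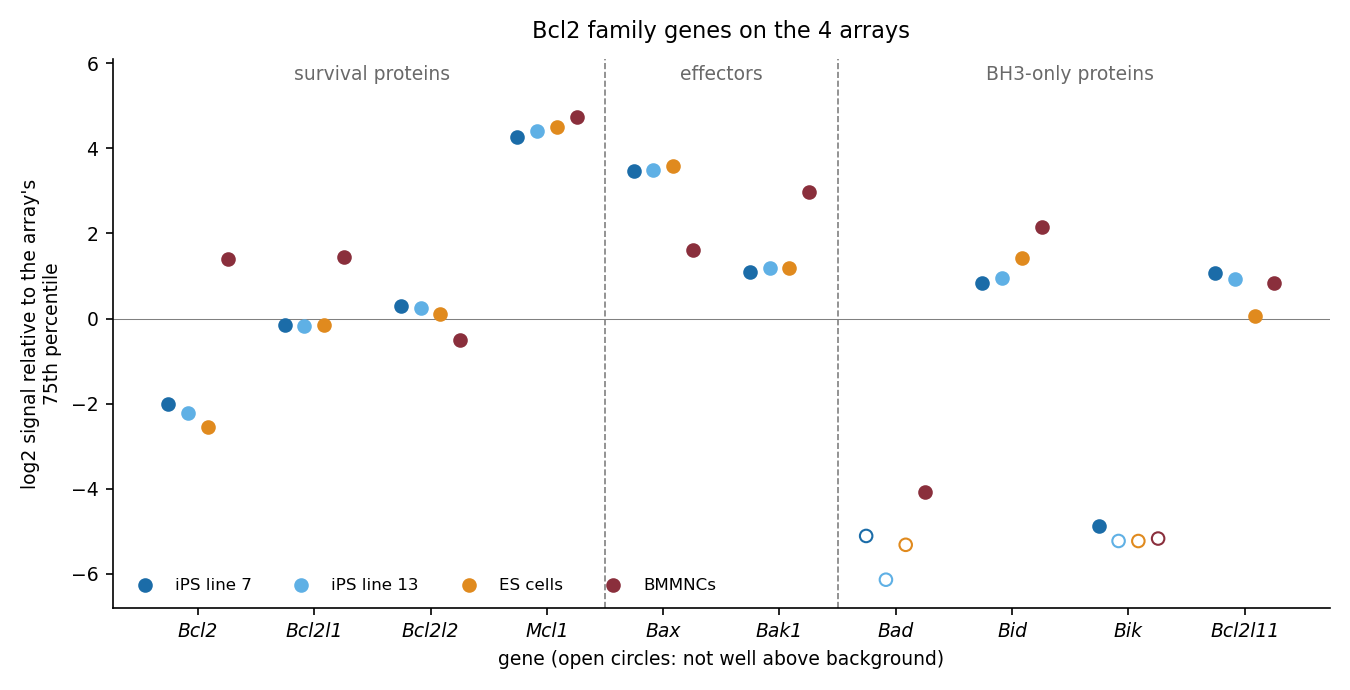
Level of each family member on the 4 arrays, as log2 signal relative to the array's 75th percentile (vertical axis), with genes grouped by role (horizontal axis) and open circles where the probe was not well above background. The iPS lines and ES cells lie close together for Bcl2l1, Bax and Bak1, and farther apart for Bcl2l11, and Bcl2, Bcl2l1, Bak1 and Bid lie lower, and Bax and Bcl2l2 higher, in the iPS lines than in BMMNCs. Levels of different genes come from different probes and are not comparable.

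Among the survival members, Bcl2, the founding member of the family, differed most. Its level was -2.01 in line 7 and -2.22 in line 13, against -2.54 in ES cells and 1.39 in BMMNCs. All 3 pluripotent samples thus lay far below BMMNCs, and both iPS lines lay slightly above ES cells. In the iPS lines Bcl2 fell by 3.51 relative to BMMNCs (SE 0.14, 11.4-fold, limma adjusted p = 0.00130). A second probe, which the files assign to another Bcl2 transcript, was printed in 10 spots on each array. It read -2.65 in line 7 and -2.90 in line 13, against -3.49 in ES cells and 0.84 in BMMNCs. Its difference between iPS lines and BMMNCs was -3.61 (SE 0.15; adjusted p = 0.00124 with every probe fitted as a feature of its own, where 76.4% of 27257 probes passed).

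Repeated spots show how tightly 1 array measures such a gene. The 10 Bcl2 spots had an SD of 0.062 in line 7, 0.099 in line 13, 0.065 in ES cells and 0.059 in BMMNCs. The lowest spot in either iPS line was at -3.05 and the highest ES spot at -3.41. How often the spots of other repeated probes part in this way was not counted. On this probe the iPS lines did not pass against ES cells (limma adjusted p = 0.106 with every probe as a feature). Spots of 1 array share the RNA and the labelling, and their SD covers spot error only. The gap between the lines on this probe, 0.24, was itself larger than the SD of its spots.

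**Figure D2:**
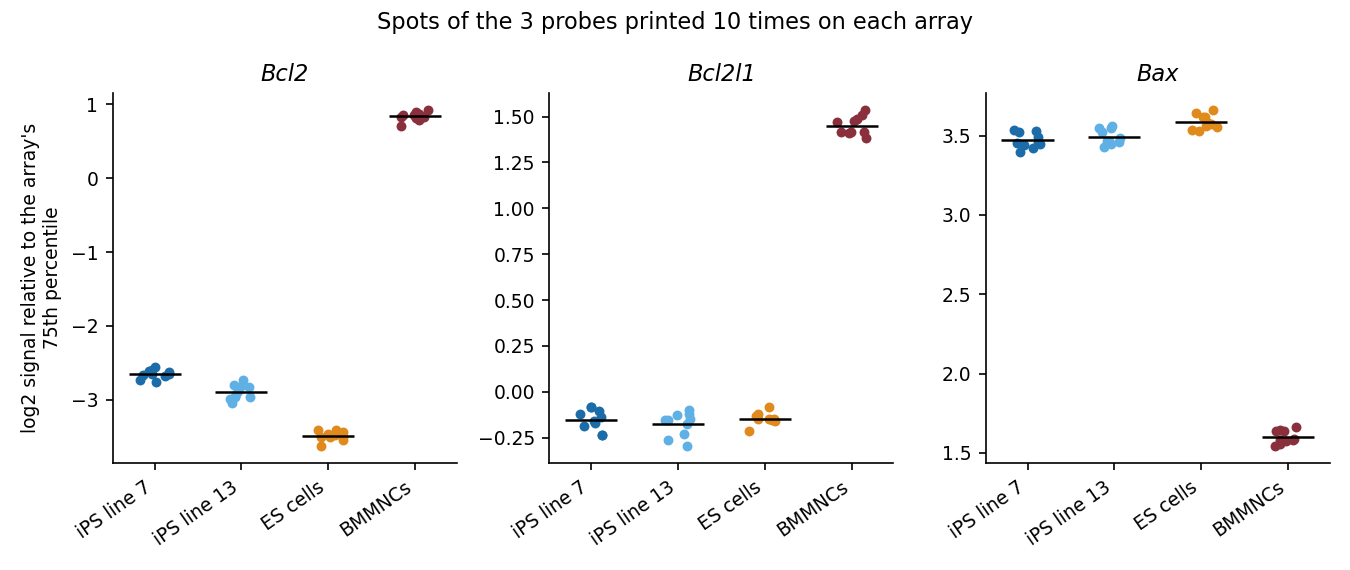
Single spots (points) and their mean (black line) for the probes of Bcl2, Bcl2l1 and Bax that were printed 10 times on each array, 1 of which was left out for Bcl2l1 in ES cells; the vertical axis is log2 signal relative to the array's 75th percentile and differs between panels. Bcl2 and Bcl2l1 spots in the iPS lines all lie below, and Bax spots all above, those in BMMNCs. Spots of 1 array share its RNA and labelling, and how often other repeated probes part in this way was not counted.

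Bcl2l1, whose long product Bcl-xL protects red cell precursors and platelets, was also lower. Its level was -0.15 in line 7 and -0.18 in line 13, against -0.15 in ES cells and 1.45 in BMMNCs. It fell by 1.62 in the iPS lines relative to BMMNCs (SE 0.092, 3.07-fold, adjusted p = 0.00217). The 3 pluripotent samples lay close together, well below BMMNCs. Its other probes differed by -1.14 and -1.36 between iPS lines and BMMNCs (adjusted p = 0.00480 and 0.00493 with every probe as a feature), so all 3 probes had the same direction. None of these probes is described in the files as separating the long from the short splice form.

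Bcl2l2 was the survival member that rose. Its level was 0.29 in line 7 and 0.25 in line 13, against 0.10 in ES cells and -0.51 in BMMNCs. It rose by 0.78 (SE 0.094, 1.71-fold, adjusted p = 0.00897), the smallest of the 6 differences that passed. Mcl1, a short-lived survival protein that blood stem cells and early embryos need, differed less between the samples. Its tested probe read 4.27 in line 7 and 4.40 in line 13, against 4.50 in ES cells and 4.73 in BMMNCs. The difference between iPS lines and BMMNCs was -0.39 (SE 0.11, adjusted p = 0.0597). The other Mcl1 probe read 4.34 in line 7 and 4.43 in line 13, against 4.20 in ES cells and 4.32 in BMMNCs, a difference of 0.06 (SE 0.10, adjusted p = 0.644 with every probe as a feature). Mcl1 passed under 4 of 10 other settings, with differences of -0.61 to -0.32 there.

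The effectors moved in opposite directions on the tested probes. Bax, which waits in the cytosol and joins mitochondria when activated, had a level of 3.47 in line 7 and 3.49 in line 13, against 3.59 in ES cells and 1.60 in BMMNCs. It rose by 1.88 in the iPS lines relative to BMMNCs (SE 0.092, 3.68-fold, adjusted p = 0.00172). Its single probe had 10 spots an array, with SDs of 0.043 to 0.048. The lowest spot of either iPS line was at 3.40 and the highest BMMNC spot at 1.67. How often other repeated probes part in this way was not counted. Bak1, the effector that resides on mitochondria, read 1.10 in line 7 and 1.19 in line 13, against 1.18 in ES cells and 2.99 in BMMNCs. On this probe Bak1 fell by 1.84 (SE 0.10, 3.59-fold, adjusted p = 0.00211). Its second, dimmer probe read -0.91 in line 7 and -0.89 in line 13, against -0.82 in ES cells and -1.20 in BMMNCs. That is a difference of 0.30 (SE 0.092), which did not pass with every probe as a feature (adjusted p = 0.0647). The direction for Bak1 therefore differed between its probes, and their mean gave -0.77. For Bax and Bak1 alike, the 3 pluripotent samples lay close together on the tested probe, apart from BMMNCs.

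Promoter sequences are shown for Bcl2, the member that fell most, and for the effectors Bax and Bak1. Each runs from 250 bases before to 50 after the transcription start in RefSeq, build GRCm38.p6, and capitals mark the GC box (GGGCGG) and the E-box (CACGTG) on either strand, none of which overlaps another here.
Bcl2 promoter, chr1:106714241-106714540 (- strand): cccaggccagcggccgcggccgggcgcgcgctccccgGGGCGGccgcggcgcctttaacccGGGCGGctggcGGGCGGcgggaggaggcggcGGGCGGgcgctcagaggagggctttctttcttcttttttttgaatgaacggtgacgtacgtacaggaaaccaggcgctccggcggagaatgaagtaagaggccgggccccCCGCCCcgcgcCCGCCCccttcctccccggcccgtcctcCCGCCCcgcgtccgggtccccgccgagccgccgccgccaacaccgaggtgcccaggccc
Bax promoter, chr7:45466849-45467148 (- strand): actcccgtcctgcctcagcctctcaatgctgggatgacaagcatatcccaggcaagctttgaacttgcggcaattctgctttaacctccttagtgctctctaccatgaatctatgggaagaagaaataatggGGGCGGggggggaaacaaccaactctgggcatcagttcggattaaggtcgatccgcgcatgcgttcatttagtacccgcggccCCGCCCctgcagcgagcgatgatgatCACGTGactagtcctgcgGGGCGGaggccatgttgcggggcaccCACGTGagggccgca
Bak1 promoter, chr17:27028578-27028877 (- strand): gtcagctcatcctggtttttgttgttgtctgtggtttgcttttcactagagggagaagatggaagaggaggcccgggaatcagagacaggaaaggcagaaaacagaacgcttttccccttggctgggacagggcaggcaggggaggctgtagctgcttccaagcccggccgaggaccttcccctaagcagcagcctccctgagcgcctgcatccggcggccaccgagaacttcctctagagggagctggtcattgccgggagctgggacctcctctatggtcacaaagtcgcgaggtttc
The Bcl2 promoter held 7 GC boxes and no E-box, the Bax promoter 3 GC boxes and 2 E-boxes, and the Bak1 promoter neither. Of 32851 promoters of this length in the table, 35.7% held a GC box and 7.15% an E-box. The Bcl2 sequence was 76.0% G or C with 44 CpG pairs, Bax 57.3% with 19 and Bak1 58.3% with 11, against medians of 52.7% and 7 over all promoters. A CCAAT box (CCAAT, in 37.4% of all promoters), a TATA box (TATAAA, 13.6%), a FOXO motif (TGTTTAC, 3.65%) and a cAMP response element (TGACGTCA, 1.79%) were also searched on both strands and were in none of these 3 windows. In all, 9 of the 10 members had a promoter entry, 13 entries together. The upstream Bcl2l11 entry was the only member entry with the FOXO motif. The letters are a description of the sequence and say nothing of which factor binds there.

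Among the BH3-only members, Bid was the one that fell. Bid, which caspase-8 cuts to link death receptors to mitochondria, had a level of 0.83 in line 7 and 0.96 in line 13, against 1.43 in ES cells and 2.15 in BMMNCs. It fell by 1.25 relative to BMMNCs (SE 0.11, 2.38-fold, adjusted p = 0.00490). Bid had its lowest levels in the iPS lines, an intermediate one in ES cells and the highest in BMMNCs.

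Bcl2l11, a potent activator that removes surplus lymphocytes, gave different answers by probe. The tested, brighter probe read 1.08 in line 7 and 0.93 in line 13, against 0.06 in ES cells and 0.83 in BMMNCs. Its difference between iPS lines and BMMNCs was 0.18 (SE 0.12, adjusted p = 0.272). The other probe read -1.77 in line 7 and -1.80 in line 13, against -2.05 in ES cells and -3.64 in BMMNCs, and there the level rose by 1.85 relative to BMMNCs (SE 0.093, 3.62-fold, adjusted p = 0.00156 with every probe as a feature). The files assign both probes to the same Bcl2l11 transcript, and with the mean of the probes the gene rose by 1.02 (adjusted p = 0.00652). ES cells, the lowest sample on the brighter probe, were well above BMMNCs on the dimmer one.

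Bad, which growth factor signalling silences by phosphorylation, was well above background in BMMNCs alone. It read -5.11 in line 7 and -6.14 in line 13, against -5.32 in ES cells and -4.07 in BMMNCs, and only the last is a measured level. With the background as the floor, the bound was at least 1.99-fold lower in the iPS lines and at least 2.10-fold lower in ES cells than in BMMNCs, and the iPS difference of -1.55 did not pass (SE 0.54, adjusted p = 0.0855). An "at least" fold sets the bright side's mean against a floor on each dim array, which is the dimmest well-measured probe there or the gene's own reading, whichever is higher. Bik, a BH3-only protein of the endoplasmic reticulum, was well above background in line 7 alone, at -4.89, with -5.23 in line 13, -5.23 in ES cells and -5.17 in BMMNCs. Its difference from BMMNCs was 0.11 (SE 0.20, adjusted p = 0.636), and no fold is given, since the levels lie at the floor.

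**Figure D3:**
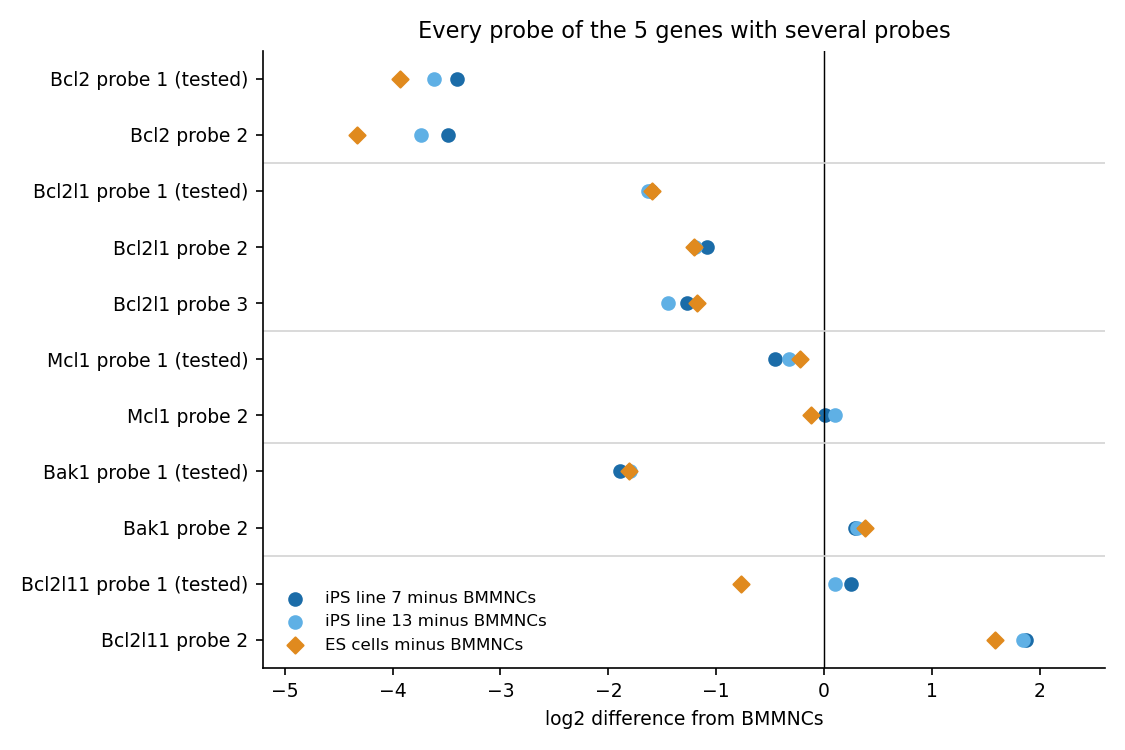
Log2 difference from BMMNCs (horizontal axis) of iPS line 7, iPS line 13 (circles) and ES cells (diamonds) for every probe of the 5 genes with several probes; "tested" marks the probe with the highest mean signal, which stands for the gene. The probes of Bcl2 and Bcl2l1 all lie below 0, those of Bak1 lie on either side of it, and the Bcl2l11 probes of the iPS lines lie near 0.2 and 1.9.

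Of the 16 member probes, 3 rose, 7 fell and 6 did not pass between iPS lines and BMMNCs with every probe as a feature, against 40% and 36.4% of all probes risen and fallen. The 3 that rose were those of Bax and Bcl2l2 and the dimmer Bcl2l11 probe. The 7 that fell were the 2 Bcl2 probes, the 3 Bcl2l1 probes, the brighter Bak1 probe and the Bid probe.

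Differences between members within an array do not depend on how arrays were scaled. Relative to BMMNCs, Bax moved up against Bcl2 by 5.27 in line 7, 5.50 in line 13 and 5.91 in ES cells on the log2 scale. Against Bcl2l1 the shift was 3.47 in line 7, 3.52 in line 13 and 3.58 in ES cells, and against Mcl1 it was 2.33 in line 7, 2.22 in line 13 and 2.21 in ES cells. Against the other effector, Bak1, Bax moved up by 3.76 in line 7, 3.69 in line 13 and 3.79 in ES cells. All these shifts were read on the tested probes, and their size depends on the probe. The second Bak1 probe differed from BMMNCs by 0.30 in the iPS lines and 0.38 in ES cells, and the second Mcl1 probe by 0.06 and -0.12. Against either of these probes the shift of Bax is smaller. The shifts in the 3 pluripotent samples lay close together, apart from that against Bcl2, which was greatest in ES cells.

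The second comparison asks how the iPS lines stand against ES cells, their pluripotent counterpart. No member passed the test, where 4.77% of all genes did (limma adjusted p of 0.05, 1.95% risen and 2.83% fallen), and 2 members had an unadjusted p under 0.05. Those were Bcl2l11, with a difference of 0.95 (SE 0.12, 1.93-fold, adjusted p = 0.0640), and Bid, with -0.54 (SE 0.11, 1.45-fold, adjusted p = 0.108). On the other Bcl2l11 probe the difference was 0.27 (SE 0.093, adjusted p = 0.180 with every probe as a feature, where 4.86% of probes passed, 1.98% risen and 2.88% fallen, and no member probe did). Bcl2 followed with 0.42 (SE 0.14, 1.34-fold, adjusted p = 0.181), and with 0.72 (SE 0.15, adjusted p = 0.106) on its 10-spot probe. Under limma with an intensity trend Bcl2l11, Bcl2 and Bid passed, 3 of 10 members, where 36.3% of all genes did (15.6% risen, 20.7% fallen). Among genes above background on all arrays the same 3 passed of 8 members, where 38.9% of all genes did (16.3% risen, 22.6% fallen). With normexp background correction Bcl2l11 and Bid passed, 2 of 10, where 24.1% of all genes did (9.79% risen, 14.3% fallen). With the values of the authors' deposited table limma called no gene, with 6634 genes at an unadjusted p under 0.05.

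The other members lay closer to ES cells. Bax differed by -0.10 (SE 0.092, adjusted p = 0.510), Bak1 by -0.04 (SE 0.10), Bcl2l1 by -0.02 (SE 0.092), Mcl1 by -0.17 (SE 0.11) and Bcl2l2 by 0.17 (SE 0.094). Bad (-0.31, SE 0.54) and Bik (0.17, SE 0.20) lay at the background on the arrays compared, apart from line 7 for Bik. The median difference of the 10 members from ES cells was -0.03, and that of all genes tested was -0.06. The signs for Bak1, Bcl2l1, Mcl1 and Bik changed with the processing. A result that does not pass in this design does not show that the levels were equal. The iPS lines and ES cells also differ in strain, origin and the Oct4-EGFP reporter, and these cannot be told apart here.

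**Figure D4:**
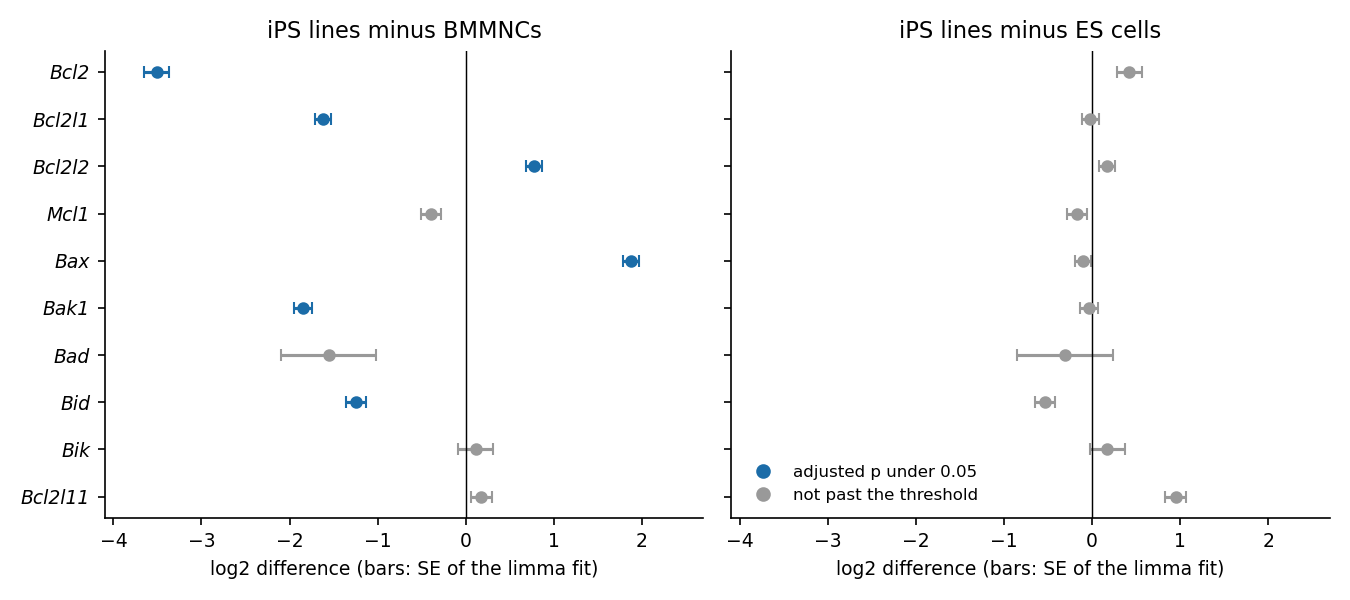
Log2 difference of the iPS lines from BMMNCs (left) and from ES cells (right) for each member, with the SE of the limma fit as bars and blue where the adjusted p was under 0.05. On the left 6 members are blue, with Bcl2 at -3.51 and Bax at 1.88 the farthest from 0, and none on the right.

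ES cells and BMMNCs were single arrays, compared by size alone. At least 2-fold higher in ES cells was Bax, by 1.98 on the log2 scale. At least 2-fold lower were Bcl2 (-3.93), Bcl2l1 (-1.60), Bak1 (-1.81 on its tested probe, but 0.38 on the other) and Bad. These 5 of 10 stand against 55.2% of all genes past that fold, 28.5% higher and 26.7% lower. By the same rule in both lines, 1 member (Bax) was higher and 5 were lower (Bcl2, Bcl2l1, Bak1, Bad and Bid) in the iPS lines than in BMMNCs, against 24.8% and 25.9% of all genes (50.7% together). Bad counts here through readings below background, and its bound of at least 1.99-fold does not reach 2-fold, which leaves 4 lower members measured on both sides. Bak1 is among these by its tested probe, while its other probe differed by 0.30 in the iPS lines. Against ES cells none of the 10 was past that fold in both lines, where 2.34% of all genes were higher and 4.19% lower, 6.52% together. The comparisons of iPS lines and of ES cells share the BMMNC array. Bid was past the fold in the iPS lines and not in ES cells, where it differed by -0.71 from BMMNCs.

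Lines 7 and 13 were close for this family. Over the 8 members above background on all arrays, their levels differed by 0.02 (Bax) to 0.21 (Bcl2). No member was 2-fold apart with the higher line above background, against 2.44% of all genes (1.32% higher in line 7, 1.11% lower). Bad differed by 1.03, with neither line above background.

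The genes whose levels ran most like those of Bax and Bcl2, the members with the largest rise and fall, were found by the Euclidean distance between levels centred on each gene's mean over the 4 arrays. The search covered 10009 other genes with a RefSeq symbol that were above background on all 4 arrays, and left out transcripts without a symbol. Nearest to Bax were Paip2b, Mier2 and Hmox1, at distances of 0.034, 0.035 and 0.035, and Hmox1, which breaks down haem, stood at 4.52 in line 7 and 4.52 in line 13, against 4.65 in ES cells and 2.63 in BMMNCs. Nearest to Bcl2 were Rasgrp3, Dram1 and Acsl5, at 0.10, 0.11 and 0.13, and Rasgrp3 stood at -3.85 in line 7 and -4.12 in line 13, against -4.46 in ES cells and -0.59 in BMMNCs. The points are 4 arrays, and each of these genes shares with its member the step between BMMNCs and the other samples.

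Around these members, the rest of the family and the death pathway were counted from lists chosen with earlier results of these data known. Of 16 other family genes, 13 were on the array and 11 were tested, and 5 rose and 6 fell in the iPS lines relative to BMMNCs, with a median of -0.73. Over all genes tested, 75.8% passed in this comparison, 38% risen and 37.8% fallen. Bok, a Bax-like protein, rose by 3.67 (SE 0.099, adjusted p = 0.000859), at 2.40 in line 7 and 2.32 in line 13, against 2.78 in ES cells and -1.31 in BMMNCs. The others that rose were Bnip3, Pmaip1 (Noxa), Bbc3 (Puma) and Bcl2l14, and Pmaip1, a BH3-only target of p53 that binds Mcl1, rose by 2.11 (SE 0.14, adjusted p = 0.00267). Bcl2a1b, a survival protein of blood cells, fell by 2.57 (SE 0.098, adjusted p = 0.00122), on a probe that its near-identical gene copies may share. Bmf, Bcl2l12, Bcl2l13, Bnip3l and Becn1 fell too. Bcl2l10 and Hrk were not well above background on any array.

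Downstream of mitochondria, 1 of 13 apoptosome and caspase genes rose, 6 fell and 6 did not pass, with a median of -0.66. Of all genes tested, 38% rose and 37.8% fell. Apaf1, the scaffold of the apoptosome, fell by 1.22 (SE 0.10, adjusted p = 0.00416). The initiator Casp9 fell by 1.49 (SE 0.099, limma adjusted p = 0.00277). The largest fall was that of Htra2, a mitochondrial protease, by 2.05 (SE 0.092), and Endog, a mitochondrial nuclease, rose by 0.89 (SE 0.094). Cycs, cytochrome c itself, differed by 0.30 (adjusted p = 0.0808).

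Inhibitor of apoptosis genes fell in 6 of 8 cases and none rose, with a median of -1.13, where 37.8% of all genes fell and 38% rose. Birc2 fell by 0.69 (SE 0.14), and Birc3, which acts in NF-kB signalling, fell by 3.63 (SE 0.099, adjusted p = 0.000864). Naip5, a sensor of bacterial flagellin in macrophages, was at least 138-fold lower, on a probe that related Naip copies may share. Naip2 and Naip5 were well above background in BMMNCs alone and were tested only for that reason. They count among the 6 falls, but their p-values are left out. Xiap, well above background in line 7 alone, did not pass (adjusted p = 0.523). In the death receptor list 8 of 9 fell and 1 rose, with a median of -1.93, against the same shares of all genes. Fas fell by 2.23 (SE 0.092, adjusted p = 0.00134), and Casp8, which cuts Bid, fell by 2.30 (SE 0.12, adjusted p = 0.00194). Fasl was at least 7.75-fold lower. It was well above background in BMMNCs alone and was tested only for that reason, so its p-value is left out, though it counts among the 8. Tnfrsf10b, the mouse receptor of the ligand TRAIL, was the gene that rose, by 2.92 (SE 0.12, adjusted p = 0.00131) on the brightest of its 3 probes. Its BMMNC level of -4.73 was close to the lowest level above background on that array, -4.93. Marker genes of blood lineages moved with these falls. The 6 B lineage markers summed to 0.756 and 0.859 times the percentile signal in the iPS lines and 0.862 in ES cells, against 99.7 in BMMNCs. The 3 T cell markers summed to 0.216 and 0.0988 in the iPS lines and 0.0971 in ES cells, against 3.88 in BMMNCs, and the 3 monocyte markers measured to 1.51 and 1.35 in the iPS lines and 1.29 in ES cells, against 26.7 in BMMNCs. The 5 erythroid markers summed to 0.0912 and 0.136 in the iPS lines and 0.132 in ES cells, against 1053 in BMMNCs. Every marker of these lists was lower in both iPS lines than in BMMNCs except Cd3e, a T cell marker, which read -2.30 in line 7 and -3.55 in line 13, against -3.56 in ES cells and -2.55 in BMMNCs and did not pass (limma adjusted p = 0.636). Cd79a, Pax5, Cd3d and Cd3g were among those not well above background in the iPS lines. The part of these markers in the falls was not tested.

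Genes that act on family members were mixed: 5 rose, 3 fell and 4 did not pass of 12, with a median of 0.05. Of all genes tested, 38% rose and 37.8% fell. Usp9x, which removes ubiquitin from Mcl1, rose by 2.25 (SE 0.13, adjusted p = 0.00233), and Huwe1, which adds it, rose too. Pim1, a kinase that phosphorylates Bad, fell by 1.26 (SE 0.15, adjusted p = 0.00908), and Trp53, the p53 gene, differed by -0.33 (adjusted p = 0.0917). Foxo3, an activator of Bcl2l11 transcription, read -5.12 in line 7 and -5.04 in line 13, against -3.38 in ES cells and -3.62 in BMMNCs, and was above background in 1 of the 2 lines. It fell by 1.46 relative to BMMNCs (SE 0.10, adjusted p = 0.00293) and by 1.70 relative to ES cells (SE 0.10, adjusted p = 0.0435). Both differences average in an iPS reading that was not well above background. Foxo3 was the only gene of these 5 pathway lists to pass between iPS lines and ES cells, where 4.77% of all genes passed. With the authors' table or with dim probes kept, limma called 0 genes there.

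**Figure D5:**
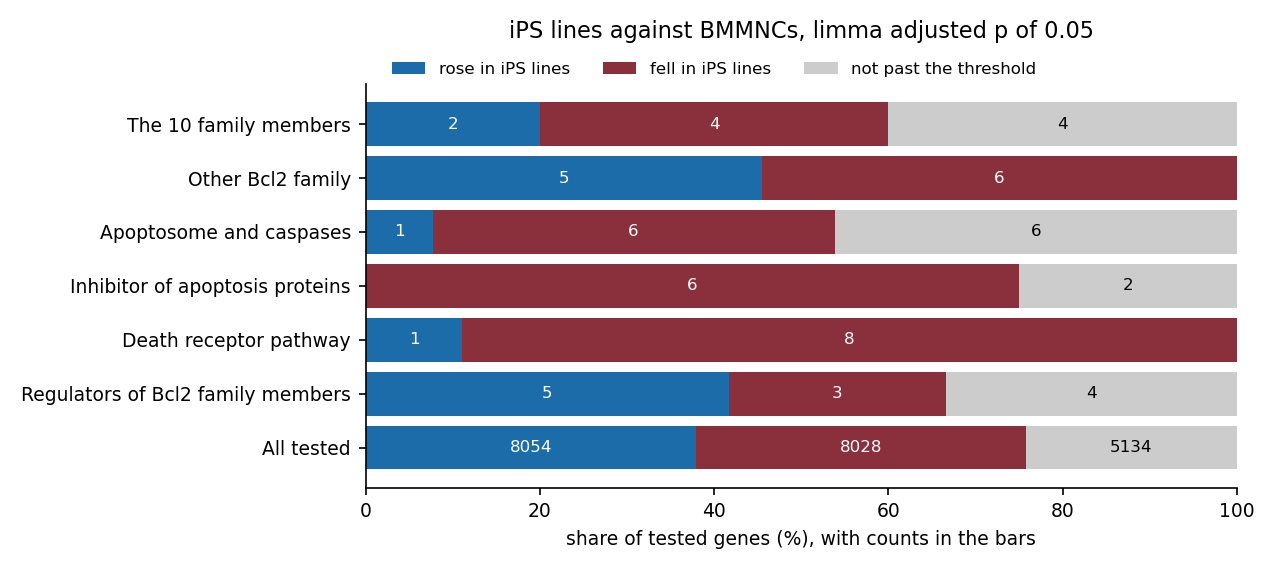
Share of tested genes (horizontal axis, %, with counts in the bars) that rose, fell or did not pass between iPS lines and BMMNCs at a limma adjusted p of 0.05, for the 10 members, the 5 pathway lists and all 21216 genes tested. In the death receptor list 8 of 9 fell, and among all genes 8054 rose and 8028 fell.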

How the data were processed

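Per the labels' protocols, RNA of the 4 samples was amplified, labelled with Cy3 and measured on Agilent mouse arrays in 1 colour. The deposited intensities are processed signals per spot, background-subtracted and detrended within each array by Feature Extraction 9.5.1.1, per the file headers (9.5 per the submitters' processing notes); the 4 arrays share 1 slide and 1 scan time. A deposited table of the authors' intensities equals the processed signal times 1 factor per array (medians 135.9 for line 7, 133.6 for line 13, 139.9 for ES cells and 106.2 for BMMNCs), linear and not centred by gene; how the factors were set is not given in the sources used here.

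Control spots and outlier spots were left out, which removed 14 probes; log2 signals of a probe's spots were averaged and each array's 75th percentile over non-control spots was subtracted. A probe was well above background when a share of at least 0.5 of its spots was so marked. Accessions were named through RefSeq's gene table (GRCm38.p6), which named 22948 of 41160 probes, and the probe with the highest mean signal stood for a gene. The fit, by limma 3.58.1 (R 4.3.3), gave each group a mean and used all 4 arrays (prior of 1.80 degrees of freedom, SD 0.0933). Benjamini-Hochberg adjustment was over 21216 genes, with a threshold of 0.05. A run on simulated data checked only the size of planted changes. It gave all arrays of a gene the same spread, so it cannot show whether the p-values hold for the lone ES and BMMNC arrays. Single arrays were compared by a 2-fold rule. The number of arrays limits the precision. Normexp used median spot signals, since the files hold no mean signal. Members, lists and the rule for named genes (every member probe; from each list the first 2 tested, the largest called rise and fall, and the largest bound) were chosen with earlier results of these data known. Other genes named complete small counts, a choice made after seeing their values.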

Additional observations from a re-analysis of the deposited data

How the results depend on the processing

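For iPS lines against BMMNCs 10 other settings were tried, and 9 for iPS lines against ES cells, and a slide block was not run, since the arrays share 1 slide. No paired analysis was possible because the iPS lines share no number with another group, and ES cells and BMMNCs have 1 sample each, numbered in listing order. Bcl2, Bcl2l1, Bak1, Bid, Bax and Bcl2l2 passed with the same sign in all 10 settings against BMMNCs, with differences of -3.72 to -3.18, -1.83 to -1.37, -2.06 to -0.77, -1.46 to -1.07, 1.66 to 2.01 and 0.56 to 0.90. The second Bak1 probe, which differed by 0.30, was read only in the mean of probes, which gave -0.77. Several of these settings share the same differences and are not independent. The median iPS minus BMMNC difference over all genes, -0.01, became -0.20 with normexp, -0.22 with median scaling, -0.31 with dim probes kept and 0.12 with the authors' table. With normexp all 10 members were called against BMMNCs, 7 of them fallen, among 17383 of 21219 genes called, 9999 of them fallen. Against ES cells 2 members were called with normexp (1 risen, 1 fallen), and 3 (2 risen, 1 fallen) both above background on all arrays, where 8 members were tested, and with an intensity trend. All genes called there numbered 1013, but 5111 with normexp, 5778 above background on all arrays, 7708 with the trend, 615 with the mean of probes, and 0 by limma with the authors' table or with dim probes kept (6634 and 4719 genes had an unadjusted p under 0.05). Signs turned for uncalled members: Bik against BMMNCs to -0.42 (normexp, adjusted p = 0.0137) and -0.10 (median scaling); Bcl2l11 against BMMNCs to -0.039 (median scaling) and -0.14 (ES and iPS arrays as 1 group). Against ES cells, Bcl2l1 turned to 0.041 (normexp), 0.074 (median scaling), 0.00073 (quantile) and 0.020 (authors' table), Bak1 to 0.0097, 0.057 and 0.0045 (normexp, median scaling, authors' table), Bik to -0.046 (normexp) and Mcl1 to 0.0059 (mean of probes). The cause of these changes was not tested. Without a line no residual degree of freedom is left, so no test was run; members at least 2-fold apart then numbered 0 to 1 against ES cells, the 1 being Bcl2l11 without line 13, and 6 against BMMNCs, Bad counted among them through readings below background. Bad and Bik lay at the background on 3 arrays each, where only bounds hold.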
